A study of Mus musculus with 46 samples.

Results

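Of the 25 promoter fragments of the Tfcp2l1 locus that were measured behind a candidate cis-regulatory element (cCRE), 11 gave little reporter RNA on their own in mouse embryonic stem cells, and these 11 weak promoter fragments with all of their cCRE combinations are described here. A fragment was taken as weak when its activity alone, as log2 of the geometric mean of the 3 biological replicates averaged over its measured orientations, was below -1.5. The weak fragments make up 2958 of the 5599 constructs that place a cCRE first and a promoter second, next to the reporter. The members were thus chosen by the measured activities of the promoter fragments alone, which are given below as a description. Another 9 fragments, at or above the threshold, are called active promoters below and have 2094 constructs. Of the remaining fragments, 4 at Tfcp2l1, Inhbb and C1ql2 were left out by name, although their values of -4.70 to -2.90 also lay below the threshold, and 1 was not measured alone.

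The constructs were assayed by massively parallel reporter in E14TG2a, an established line of mouse embryonic stem cells kept in 2i+LIF medium. All constructs used here come from the Tfcp2l1 Upstream libraries, a single group of 3 biological replicates with no further treatment: the barcoded plasmids were nucleofected on their own, apart from the libraries of the other loci, and the cells were harvested after 24 h. Activity is the ratio of a construct's barcodes in cDNA, made from reporter RNA, to those in plasmid DNA. The plasmids were transiently transfected, no endogenous RNA was measured, and the labelled cell type could therefore not be checked against marker genes.

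A core promoter is the stretch around a transcription start where RNA polymerase II is assembled, and an enhancer raises the output of a promoter that it is brought close to. Promoters of genes used in most cell types usually lie in CpG islands, stretches rich in CG dinucleotides, whereas promoters of genes restricted to a tissue often do not. Tfcp2l1 itself encodes a transcription factor of the naive pluripotency network of mouse embryonic stem cells, and its neighbours on the chromosome include genes of very different tissues, such as Gli2, a transcription factor of Hedgehog signalling, and Marco, a scavenger receptor of macrophages.

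All 11 weak fragments are 450 bp long and lie on chromosome 1. For 5 of them, RefSeq's promoter windows on GRCm38.p6 (mm10) overlap the fragment upstream of a listed gene start. The bases before the start that lie inside the fragment are shown for 4 of these, because they span the range of CG content seen at the weak promoters, with every CG dinucleotide in capitals and read 5′ to 3′ in the direction of the gene.
P013 (Gli2): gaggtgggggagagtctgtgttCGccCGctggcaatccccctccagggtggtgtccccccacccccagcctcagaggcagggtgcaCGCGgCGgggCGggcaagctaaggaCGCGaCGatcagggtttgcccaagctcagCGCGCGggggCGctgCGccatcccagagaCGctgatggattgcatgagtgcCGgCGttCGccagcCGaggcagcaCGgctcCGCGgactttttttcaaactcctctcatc
P033 (Marco): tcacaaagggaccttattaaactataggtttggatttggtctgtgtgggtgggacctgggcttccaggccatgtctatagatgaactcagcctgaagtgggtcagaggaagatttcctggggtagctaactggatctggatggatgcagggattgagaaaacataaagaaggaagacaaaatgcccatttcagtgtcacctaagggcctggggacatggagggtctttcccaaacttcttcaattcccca
P020 (3830432H09Rik): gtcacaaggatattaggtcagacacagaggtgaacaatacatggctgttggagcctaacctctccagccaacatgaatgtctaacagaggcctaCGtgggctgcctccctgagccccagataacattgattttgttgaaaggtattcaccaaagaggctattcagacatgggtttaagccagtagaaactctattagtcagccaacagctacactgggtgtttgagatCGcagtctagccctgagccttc
P027 (Tmem37): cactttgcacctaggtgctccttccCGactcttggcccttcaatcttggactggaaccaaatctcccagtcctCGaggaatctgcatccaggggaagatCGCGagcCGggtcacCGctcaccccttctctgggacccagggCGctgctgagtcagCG
The Gli2 window is chr1:119053620-119053869 on the minus strand, the Marco window chr1:120505025-120505274 on the minus strand, the window of the non-coding gene 3830432H09Rik chr1:119536166-119536415 on the minus strand, and the shorter Tmem37 window chr1:120073874-120074030 on the minus strand. The 250 bases of Gli2 held 22 CG dinucleotides at 67.2% GC, those of 3830432H09Rik held 2 at 47.6%, and those of Marco held 0 at 47.6%. The median over 32851 RefSeq windows of the same length was 6 CG dinucleotides at 52.4% GC. At the active promoters, the windows of Nifk, Ralb, Tmem185b, Tmem177 and Cfap221 held 12, 18, 25, 18 and 11. The Gli2 window thus lay within the range of the active promoters in CG content, while the Marco and 3830432H09Rik windows lay below it. The Tmem37 window held 8 in 157 bases, and the 139 bases of Gm46154 inside its fragment held 0. Both strands were searched for the TATA box as TATAAA, the binding motif of NF-Y as CCAAT, that of Sp1 as GGGCGG, and that of ETS factors as CCGGAAG. The 5 weak windows held only 1 match, the Sp1 motif at Gli2. Of all 250-base windows, 32.7% hold the Sp1 motif, 12.4% the TATA box, 33.8% the NF-Y motif and 6.91% the ETS motif. No match says only that these letters are not in the window.

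Alone, P013, P006, P020, P033 and P027, all at or near a gene start, ranged from 0.0221 to 0.263. P013 (chr1:119053544-119053994), which holds the Gli2 start, gave 0.196, 0.210 and 0.218 in the 3 replicates in its + orientation and 0.0894, 0.112 and 0.143 in its - orientation, a mean log2 of -2.71. P006 (chr1:118311692-118312142) lies 964 bp upstream of the start that RefSeq's window table lists for Tsn, which encodes the nucleic acid binding protein translin. It gave 0.225, 0.263 and 0.263 in + and 0.0466, 0.0773 and 0.0957 in -. The replicate values of the 2 orientations did not overlap for P006, nor for P013, P014, P020 and P027. P020 (chr1:119536090-119536540), at the start of 3830432H09Rik, gave 0.165, 0.164 and 0.190 in + and 0.141, 0.0931 and 0.0879 in -. P033 (chr1:120504949-120505399), at the start of Marco, gave 0.0460, 0.0796 and 0.0674 in + and 0.0221, 0.0586 and 0.0496 in -. P027 (chr1:120073874-120074324) had a mean log2 of -4.36. It lies 94 bp upstream of the listed start of Tmem37, a membrane protein related to calcium channel subunits, and overlaps the span given for that gene.

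The other weak fragments lie away from a listed protein-coding start. P014 (chr1:119058093-119058543), 4474 bp upstream of the Gli2 start, gave 0.0281, 0.0592 and 0.0773 in + and 0.100, 0.127 and 0.114 in -. P016 (chr1:119328824-119329274) overlaps no gene and gave 0.0741, 0.102 and 0.0977 in + and 0.0871, 0.107 and 0.112 in -. P015 (chr1:119326758-119327208), also intergenic, was lower, at 0.0137, 0.0509 and 0.0418 in + and 0.0208, 0.0484 and 0.0450 in -. The lowest mean log2, -5.23, belonged to P023 (chr1:119902754-119903204) inside the predicted gene Gm28209. P026 (chr1:120006518-120006968) overlaps Cfap221 and the secretin receptor gene Sctr and was measured in 1 orientation, as was P032 (chr1:120435429-120435879) at the start of Gm46154. These 2 fragments have only 2 and 1 constructs, so the results below rest on the other 9.

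P032, at -1.53, was the member closest to the threshold, and the fragments just outside it were P025 at -0.53, P024 at -0.49 and P021 at -0.33. Among the 9 weak fragments measured alone in both orientations, 4 were higher in +, with differences from -1.17 to 1.83 on the log2 scale. Among the 7 such active fragments 6 were higher in +, with differences from -0.11 to 4.62. Which orientation label points a fragment towards the reporter is not given in the sources used here.

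Behind a cCRE, most weak promoters stayed at low activity. The median over the 2958 constructs was 0.0406, 0.0699 and 0.0642 in the 3 replicates, against 1.39, 1.52 and 1.71 for the active promoters. A replicate at 0 occurred in 428 weak constructs, or 14.5%, and in 4 active ones, or 0.191%. Replicate 1 held 343 of these zeros, replicate 2 69 and replicate 3 105. Constructs with a zero were left out of the tests of single constructs, which therefore describe the weak constructs that gave some RNA in every replicate; medians over constructs include them. Their log2 activities correlated between replicates with r of 0.79, 0.78 and 0.82 over the constructs, which share 1 plasmid pool, against 0.97, 0.96 and 0.97 for active constructs. The median SD between replicates was 0.69 on the log2 scale for weak and 0.22 for active constructs, so single weak constructs are known less precisely. The numbers of barcodes and reads behind each construct were not analysed here, and the depth is unknown.

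With a minority of cCREs, constructs of weak promoters reached the level of active ones. Of the weak constructs, 95 (3.21%) exceeded 1.55, the median of the active constructs. They used 41 cCREs, and E060, inside Tfcp2l1, accounted for 23 of them, E017 and E294 for 8 each and E301 for 6. Activities of weak constructs above 0 in every replicate ran from 0.00319 to 10.9, the highest being cCRE E017 in - orientation before the Gli2 promoter P013 in + orientation, written E017-P013+.

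Next to the reporter, most weak promoters stood below the median of cCRE fragments in the same place. Fragments chosen for low activity alone could be low here too, so the counts describe the members and are no independent evidence that they are weak. The median activity of all constructs of 2 cCREs was 0.128, 0.149 and 0.156 in the 3 replicates. The median behind each of the 17 oriented weak promoters with at least 10 constructs, called its basal activity, ranged from 0.0143 to 0.126 in replicate 1, from 0.0460 to 0.150 in replicate 2 and from 0.0361 to 0.164 in replicate 3. Against the cCRE-cCRE median, 15 of the 17 were lower and 0 higher (limma, Benjamini-Hochberg adjusted p under 0.05), where 55.6% of all 405 second fragments were lower and 31.9% higher. The median difference was -1.34 on the log2 scale for weak promoters and -0.70 for all second fragments, while all 16 active ones were higher with a median of 3.74. The exceptions were the Gli2 promoter P013 in +, at -0.04 (SE 0.18, limma adjusted p = 0.85), and P023 in -, at -0.73 (SE 0.34, limma adjusted p = 0.074; 0.042 with the replicate block). Without constructs under an activity of 0.05 the difference of P013 in + was -1.20 (limma adjusted p = 1e-06). Without replicate 2 P020 in - and P023 in + lost their calls and P023 in - gained one, and without replicate 3 P020 in - lost its call. The lowest of the weak promoters was P015 in +, at -2.29 (SE 0.37, limma adjusted p = 0.00082).

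Each construct is compared with its promoter by the boost index. This is the log2 ratio of its activity to the basal activity of the same oriented promoter in the same replicate. It could be formed for 2521 weak constructs. Of these, 701 were higher than basal (27.8%) and 116 lower (4.60%) at a limma adjusted p under 0.05. Over all 5054 constructs tested, 25.9% were higher and 8.82% lower, so the share of higher constructs among weak promoters was close to that of the whole library. For active promoters 465 of 2089 were higher and 304 lower, a difference between promoter groups that was not tested as such. With the replicate number as a block, 726 weak constructs were higher and 193 lower. Without replicate 3 the counts were 437 and 31, without replicate 2 they were 527 and 53, and without replicate 1 they were 717 and 230.

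The share of higher constructs varied little among the weak promoters with many constructs. It was 24.6% for P006 near Tsn, 24.6% for P020, 24.8% for the Marco promoter P033, 25.7% for P015, 28.3% for P014, 30.6% for P016 and 32.2% for the Gli2 promoter P013. P023, with 23 constructs tested, had 10 higher, and P027, also with 23, had 6. The cCREs differed widely in how many of their constructs were higher. For 26 of the 134 cCREs measured with at least 5 weak promoter fragments, most constructs were higher than basal. For 9 cCREs every tested construct was higher, and for 24 none was.

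E060 (chr1:118647958-118648408) lies inside Tfcp2l1, 20013 bp downstream of its start. All 28 of its tested constructs with 9 weak promoters were higher than basal. Its boost index averaged over these promoters was 6.10, 5.18 and 5.21 in the 3 replicates, a mean of 5.50 ± 0.52 (SD, n = 3). By promoter it ranged from 4.77 ± 0.10 on P020 to 5.95 ± 1.05 on P015 (SD, n = 3), a difference of about the size of the larger SD. The replicate values, 4.68, 4.74 and 4.88 on P020 and 7.15, 5.29 and 5.39 on P015, did not overlap. On the Gli2 promoter P013 it was 5.65 ± 0.32 and on the Marco promoter P033 5.02 ± 0.65. The highest of its constructs was E060+P015+, with activities of 3.65, 3.65 and 3.14 against a basal activity of 0.0152, 0.0460 and 0.0361. Its boost index was 6.89 (SE 0.43, limma adjusted p = 0.00017). The E060+P013- construct reached 7.48, 6.66 and 6.11 over a basal activity of 0.0554, 0.0814 and 0.0834.

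E017 (chr1:118311123-118311573) lies at Tsn, 395 bp upstream of the start that RefSeq's window table lists, and only 119 bp from the weak fragment P006. All 15 of its tested constructs with 7 weak promoters were higher than basal. Its mean boost index was 5.89, 4.90 and 5.26 in the 3 replicates, or 5.35 ± 0.50 (SD, n = 3). By promoter it ran from 4.22 ± 0.14 on P020 and 4.39 ± 0.69 on P033 to 6.23 ± 0.21 on P013 and 6.53 ± 0.77 on P014 (SD, n = 3). The replicate values on P020, 4.10, 4.19 and 4.37, lay below all of those on P013, 6.46, 6.06 and 6.15. With its genomic neighbour P006, E017-P006+ gave 3.78, 4.12 and 4.69 over a basal activity of 0.0256, 0.0585 and 0.0554, a boost index of 6.58 (SE 0.36, limma adjusted p = 0.00012).

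The next cCREs had lower mean boost indices on weak promoters, again with every tested construct higher than basal. E071 (chr1:118740997-118741447, intergenic, 113052 bp from the Tfcp2l1 start) had a mean boost index of 4.25 ± 0.43 (SD, n = 3) and 23 of 23 constructs higher. E301 (chr1:120529869-120530319), 24845 bp upstream of Marco, had 4.20 ± 0.59 and 22 of 22. On the Marco promoter itself E301 gave 3.79 ± 0.88, within the range of 3.78 to 4.41 over the 7 weak promoters. E294 (chr1:120461482-120461932, intergenic) had 4.18 ± 0.69 and 30 of 30, and E166 (chr1:119398645-119399095, intergenic) 4.09 ± 0.49 and 23 of 23. The SDs of these 4 cCREs overlap, so their order among themselves is not resolved by the replicates. Most of their constructs were lower than the cCRE alone: 17 of 23 for E071, 17 of 22 for E301, 21 of 30 for E294 and 21 of 23 for E166. Whether these cCREs acted on the promoter or gave RNA by themselves was not tested.

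At the other end, E053 (chr1:118625927-118626377), 1568 bp upstream of the Tfcp2l1 start, had the lowest mean boost index over weak promoters. It was -2.04, -0.89 and -1.33 in the 3 replicates, or -1.42 ± 0.58 (SD, n = 3), with 2 of 9 constructs lower than basal and 0 higher. E099 in Gli2 averaged -1.07 ± 0.57, E189 -1.05 ± 0.55, E217 -1.01 ± 0.19 and E091 in Gli2 -0.93 ± 0.37. Of their constructs, 1 of 7, 2 of 18, 1 of 15 and 1 of 14 were lower, and 1 of E091 was higher. Lower calls made up 4.60% of all weak constructs tested and 8.82% of all constructs tested. Whether these 5 cCREs differ from those shares was not tested. Between 2 and 6 further constructs of each of these 5 cCREs had a replicate at 0 and were not tested.

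The single constructs furthest below basal lay close to the lower end of the measurement. E135+P020+ gave 0.00977, 0.00107 and 0.00457 over a basal activity of 0.0662, 0.0707 and 0.0631, a boost index of -4.20 ± 1.68 (SD, n = 3; limma adjusted p = 0.010). It was followed by E235-P033+ at -3.74, E107-P016+ at -3.50, E142+P016- at -3.49 and E019+P013- at -3.31. Without replicate 3 only E019+P013- among these 5 kept an adjusted p under 0.05, and without replicate 1 E107-P016+ and E142+P016- lost it; with the replicate block the adjusted p of E142+P016- was 0.052.

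The 10 highest boost indices came from constructs of different kinds. E060 and E017 gave 4 of them, as described above. The other 6 were E031-P033-, E295-P033-, E124-P033-, E250-P016+, E143+P006- and E282+P006+. Except for E124, whose activity alone was 1.78, 1.93 and 2.28, these cCREs were weak alone, and so were their promoter partners.

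E031-P033- gave 3.91, 5.44 and 5.71, whereas the Marco promoter P033 in that orientation had a basal activity of 0.0237, 0.0584 and 0.0486 and the cCRE E031 alone gave 0.0641, 0.0451 and 0.0464. Its boost index was 6.93 (SE 0.39, limma adjusted p = 0.00013). None of the 10 tested constructs of E031 with other weak promoters was higher than basal; their median boost index was -0.70 and the highest 0.51. The mean of E031 over weak promoters, 0.78, therefore rests on this 1 construct: the median over its constructs was -0.66, and with zeros kept and a pseudocount of 0.01 the mean was -0.59.

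Some other high constructs of 2 weak fragments stood apart from the remaining orientations of the same pair. For E031-P033- this could not be seen, because no other orientation was tested and 2 held a zero. E143+P006- gave 5.22, 5.87 and 5.59, with E143 alone at 0.0282, 0.0625 and 0.0571, a boost index of 6.62 (SE 0.30, limma adjusted p = 8.6e-05). In the other 2 measured orientations the same pair stood at -1.26 and -0.91. E295-P033- reached 4.15, 4.65 and 5.01, while the other 3 orientations of that pair lay between -1.28 and 0.32 in boost index. E250-P016+ reached 6.17, 4.40 and 4.62, and the other 3 orientations lay between -1.91 and 0.89. E214-P020+ gave 3.69, 3.77 and 3.07, a boost index of 5.71 ± 0.10 (SD, n = 3), and the other 3 orientations lay between 0.10 and 0.45. High activity of these constructs was repeated in all 3 replicates but not in the other measured orientations of the same pair. This did not hold for every high construct. E086-P033+ had a boost index of 6.30, and the other 3 orientations of that pair ranged from -3.17 to 4.83. With other weak promoters, E295 had 4 of 20 constructs higher than basal, with E295+P016+ highest at 4.04, E143 2 of 19, with E143-P016- at 5.22, E250 2 of 12, with E250-P015+ at 5.95, and E214 0 of 12. The replicates share their plasmids, and how many barcodes each construct had was not analysed here.

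The cCREs E076, E251, E203 and E110 were named from earlier results for high values on P016. E076-P016+ gave 2.94, 2.95 and 2.79, a boost index of 5.85 ± 0.51 (SD, n = 3), against -1.45 ± 1.37 for E076 on P006, its only other weak promoter. E251 averaged 1.75 ± 0.89 on P016 and -1.76 ± 0.34 on P033, but its 2 constructs with P016 were apart, at 5.16 for E251+P016- and -1.66 for E251-P016+. E203 averaged 2.01 ± 0.52 on P016 and -0.06 ± 1.36 on P020. E110, at 2.39 ± 0.64, was measured on P016 only.

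Compared with the cCRE alone, a construct with a weak promoter next to the reporter mostly gave less. The difference in log2 activity had a median of -1.22, -0.90 and -1.04 in the 3 replicates for weak promoters. For active ones it was 3.07, 2.90 and 2.96. These replicate medians do not overlap, while single constructs of both groups went either way. The groups were set by the promoters' activity alone, so the gap between them is a description and no independent evidence. Of 2524 weak constructs, 1136 (45.0%) were lower than the cCRE alone and 9.94% higher at a limma adjusted p under 0.05. Over all 5053 constructs tested, 26.7% were lower and 40.4% higher, and for active promoters 75 were lower and 1747 higher of 2085. The share of lower constructs was smallest, among promoters with many constructs, for the Gli2 promoter P013 at 28.7%, and largest for P015 at 63.5%. Leaving out constructs below an activity of 0.05 changed the count of lower weak constructs to 613 of 1456.

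E017 and E060 were lower in each tested construct with a weak promoter, 7 and 9 of the fragments, than alone. E017 alone gave 14.9, 15.0 and 16.9 in + and 31.3, 29.0 and 33.5 in -. All 15 of its weak constructs were lower than E017 alone, by a median log2 difference of -4.11 and a range of -5.97 to -1.51. The extreme was E017-P015-, at 0.479, 0.450 and 0.567 (difference -5.97, SE 0.18, limma adjusted p = 3.7e-06). E060 alone gave 16.4, 15.9 and 14.3 in + and 7.57, 7.54 and 6.92 in -. All 28 of its weak constructs were lower, with a median of -2.05 and a range of -3.25 to -0.52. Thus constructs that stood far above the basal activity of a weak promoter could still lie below the cCRE alone. Of the 701 weak constructs higher than basal, 320 were lower than their cCRE alone and 208 higher.

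The constructs furthest above the cCRE alone were again pairs of 2 weak fragments. E143+P006- exceeded E143 alone by 6.90 (SE 0.34, limma adjusted p = 9.4e-06) and E031-P033- exceeded E031 alone by 6.60 (SE 0.25, limma adjusted p = 4.4e-06). E076-P016+, E251+P016- and E086-P033+ followed at 6.51, 6.45 and 6.27. The furthest below, beside E017-P015-, were E077+P015+ at -6.66, E249-P015+ at -6.39, E267-P015+ at -5.75 and E077+P016+ at -5.68. Of these 5, 4 contain the intergenic fragment P015 and all 5 contain P015 or P016. P015 and P016 hold 222 and 538 of the 2524 weak constructs tested against the cCRE alone. Apart from E017-P015-, these constructs had replicate values of only 0.00176 to 0.0433. Without the replicate block they were not called different from basal (limma adjusted p of 0.13 to 0.53). E267-P015+ and E077+P016+ were called lower than basal with the block (limma adjusted p = 0.028 and 0.026).

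The order of the fragments also mattered for weak promoters. For 1282 pairs the same 2 fragments were measured in the same orientations with the promoter first and the cCRE next to the reporter. The cCRE-first minus promoter-first difference had a median of -0.52, -0.43 and -0.52 in the 3 replicates for weak promoters. For active ones it was 1.70, 1.65 and 1.66, a contrast that is again a description, because activity alone set the groups. Of the weak pairs, 354 (27.6%) were lower with the promoter next to the reporter and 139 (10.8%) higher at a limma adjusted p under 0.05. Over all 2234 pairs tested, 19.3% were lower and 29.7% higher. Without replicate 2 there were 86 higher weak pairs and without replicate 3 there were 84.

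For E017, all 12 weak pairs tested were lower with the promoter next to the reporter, with a median of -3.98, and for E060 21 of 22 were, with a median of -2.14. E017-P014- gave 4.11, 3.60 and 4.15 with E017 first, whereas with P014 first and E017 next to the reporter the activities were 36.3, 37.2 and 39.4. The latter values lie above those of E017 alone in that orientation. With P006 in + first they were 34.5, 30.4 and 33.6, overlapping E017 alone, and with P015 in - first 24.1, 22.9 and 27.3, below it. The share of lower weak pairs rose with the activity of the cCRE alone. Among cCREs in the lowest of 3 equal groups by activity alone, 14.1% of 248 weak pairs were lower and 14.1% higher. In the highest group 43.7% of 522 were lower and 7.09% higher. The share of weak constructs higher than basal was 11.3% in the lowest group, 12.2% in the middle group and 53.4% in the highest. The extreme single pairs did not follow this: the 5 furthest below, past the threshold, held cCREs of 0.0189 to 0.255 alone. They were E227-P013- (-7.65), E029+P006+ (-7.00), E189+P033+ (-6.80), E035+P013+ (-6.38) and E168-P014- (-6.00). The 5 furthest above were E214-P020+ (7.52), E086-P033+ (7.36), E250-P016+ (7.31), E061-P016- (6.70) and E282+P006+ (6.39).

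The same cCREs were then compared between weak and active promoters by their mean boost index. Of 129 cCREs with at least 5 weak and 3 active fragments, 38 had a higher mean boost index on weak promoters (29.5%) and 7 a lower one (5.43%) at a limma adjusted p under 0.05. The test compares replicate means over the fragments measured, so its p-values leave out the spread among promoter fragments. The promoters' activity alone set the groups, and the boost index divides by a basal activity that was lower for weak promoters. This contrast is therefore a description and no independent evidence. E060 averaged 5.50 ± 0.52 on weak and 2.50 ± 0.19 on active promoters (SD, n = 3), a difference of 2.99 (SE 0.26, limma adjusted p = 0.00016). E017 averaged 5.35 ± 0.50 and 2.57 ± 0.12, a difference of 2.78 (SE 0.25, limma adjusted p = 0.00016). E188, 1543 bp upstream of the 3830432H09Rik start, E071 and E294 followed with differences of 2.48, 2.27 and 2.22. In activity itself the order was the opposite: for all 129 cCREs log2 activity was lower with weak than with active promoters, by -1.61 for E060 and -1.49 for E017. The larger boost index of these cCREs on weak promoters is thus a larger ratio to a lower basal activity, and the constructs remained below those of active promoters.

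Among the 7 cCREs past the threshold with a lower boost index on weak promoters, the 5 with the most negative difference were E189 at -1.12, E108 at -1.10, E245 at -0.93, E269 at -0.86 and E029 at -0.62. E189 averaged -1.05 ± 0.55 on weak and 0.08 ± 0.06 on active promoters (SD, n = 3; limma adjusted p = 0.012). E029 averaged 0.10 ± 0.37 and 0.72 ± 0.04 (limma adjusted p = 0.045; 0.067 with the replicate block). E029 lost its call whichever replicate was left out, E189 without replicate 1 or 3, and E269 without replicate 3. With medians over promoters E108, at -0.64 (limma adjusted p = 0.056), and E189, at -0.72 (limma adjusted p = 0.083), lost their calls. Without activities under 0.05 the difference of E029 was 0.08 (limma adjusted p = 0.76), with the sign turned. That cut raises the means on weak promoters by leaving out their low constructs. Across the 129 cCREs the mean boost indices on weak and active promoters correlated with r = 0.87, a description over cCREs that share their libraries, and their SD over cCREs was 1.38 on weak and 0.89 on active promoters. Without replicate 3, 17 cCREs were higher and 2 lower on weak promoters. With log2 activity in place of the boost index, 0 were higher and 129 lower.

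The boost indices of weak promoters were positively correlated across cCREs. Over 28 pairs of weak promoters with at least 20 shared cCREs, Pearson's r of their boost indices ranged from 0.53 for P006 with P033 to 0.91 for P013 with P027, the latter over only 23 cCREs, with a median of 0.72. Spearman's rho of the same pairs was lower, from 0.43 to 0.84 with a median of 0.55. These correlations are across cCREs measured in the same libraries. In an additive description of 1017 promoter and cCRE combinations, 71.9% of the sum of squares went to the cCRE, 0.98% to the promoter and 27.1% to the rest. The promoter's share is small by construction, because each boost index is relative to the promoter's own basal activity. The mean square of the rest, 0.87, exceeded the mean variance of a 3-replicate mean, 0.22. The mean boost index of a cCRE over weak promoters correlated with its log2 activity alone with r = 0.87 (Spearman's rho 0.69) across 134 cCREs.

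Orientation was compared over single combinations. For 726 weak combinations measured with the cCRE in both orientations, the boost indices correlated with r = 0.52 and differed by a median of 1.02. For 948 with the promoter in both orientations, r was 0.59 and the median difference 0.83. These are differences between means of 3 replicates of different barcoded plasmids. The SD between replicates leaves out differences between plasmids, and an effect of orientation was not tested.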

How the data were processed

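Per the labels' protocols, barcodes were counted in cDNA and, for normalisation, in plasmid DNA, and were linked to fragments by inverse PCR. Mapping used Bowtie2 and mm10, per the submitters' processing notes. The authors deposited the activity of each construct and of each single fragment as a ratio per replicate, and a boost index on the log2 scale. How barcodes were filtered and averaged, and what sets an activity of 1, is not given in the sources used here. The deposited log2 boost index exceeded the mean of the replicate indices used here by a median of 0.20 (0.06 to 0.67) over 2521 weak constructs. Of the value columns of the tables, 26 were not used. Coordinates are as the authors deposited them.

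The members, the lists and the tests were chosen with earlier results of these data known. Named are every weak fragment, the cCREs of highest and lowest mean boost index over weak promoters with some known from earlier results, and the constructs with the largest differences. Basal activity is the median over all cCRE constructs of an oriented promoter, with at least 10 constructs. Tests compared 3 replicate values with 3 on log2 activity in limma 3.58.1 (R 4.3.3; two-sided, moderated variances), with Benjamini-Hochberg adjustment over all Tfcp2l1 features tested and a threshold of 0.05. They were checked on simulated data. Means per cCRE first average the constructs of each promoter, and needed at least 5 weak promoters. Tables were handled in Python 3.11.15 with pandas 2.3.3 and numpy 2.4.6.

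A construct and its baseline of the same replicate number come from the same cDNA library, so the numbers pair the values; their deviations from the mean correlated with r of 0.25, 0.20 and 0.14 over the weak constructs in the 3 replicates. The replicates share a plasmid pool, so the errors leave out differences between barcoded plasmids. Alternatives kept zeros with a pseudocount of 0.01, added the replicate block, left out activities under 0.05, left out each replicate, and changed the baseline, the scale or the average.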

Additional observations from a re-analysis of the deposited data

Results flagged for a closer look

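For 10 cCREs the boost index differed between weak and active promoters by the limma test of that difference, given as weak minus active with Benjamini-Hochberg adjustment over 129 cCREs. It was higher on weak promoters for E060 (2.99), E017 (2.78), E188 (2.48), E071 (2.27) and E294 (2.22). It was lower on weak promoters for E189 (-1.12), E108 (-1.10), E245 (-0.93), E269 (-0.86) and E029 (-0.62). These are the 5 furthest in each direction among the 45 cCREs past the threshold. On the scale of log2 activity all 10 were lower with weak promoters, from -5.07 for E189 to -1.49 for E017. Because the promoters' activity alone set the groups, these differences are a description and no independent evidence.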

How the results depend on the processing

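The 701 weak constructs higher than basal ranged from 437 to 717 when 1 replicate was left out. The 116 lower ones numbered 202 with zeros kept and a pseudocount, 193 with the replicate block, 20 without activities under 0.05, 496 against the promoter alone (a description, since these values chose the members), 381 against the mean construct, and 31 to 230 when 1 replicate was left out. Of the 701, 657 were also called with the block. Constructs lower than the cCRE alone numbered 613 without activities under 0.05, and pairs higher with the promoter next to the reporter 74; the latter ranged from 84 to 124 when 1 replicate was left out. Of the 129 cCREs tested between promoter groups, 25 were higher on weak promoters with medians over promoters, and 0 were higher and 129 lower in log2 activity. Leaving out 1 replicate gave 17 to 38 higher and 2 to 7 lower. Of 138 tested with zeros kept, 13 were lower. Without activities under 0.05, 64 of 78 were higher and 0 lower. That cut kept 1454 of 2521 weak constructs. It raises the means on weak promoters by leaving out their low constructs, so these counts cannot test the difference. The mean boost index of E031 became -0.59 with zeros kept and -0.66 as a median. The replicate block moved no other count by over 1.5 times, and its changes of single calls are given where the construct, promoter or cCRE is named. The causes were not tested. The unknown number of barcodes, the zeros and the larger spread of weak constructs limit what can be said of values far below basal.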

Other observations

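Distance on the chromosome was compared with the boost index of weak promoters. Across 2521 weak constructs, Spearman's rho with the distance between cCRE and promoter was 0.04, over constructs that share fragments. Within 20000 bp, 24 of 60 constructs (40.0%) were higher than basal and 2 lower, against 677 of 2461 (27.5%) higher among the others, and the median boost index was 0.75 against 0.09. Many of these 60 share a cCRE or a promoter, and the difference was not tested. E188 lies 1168 bp from P020, the promoter of 3830432H09Rik, and its 4 constructs with P020 had boost indices of 2.97 to 4.04, all higher than basal, as were all 28 of its constructs over 8 weak promoters (3.06 to 4.72 by promoter). E189, 3781 bp from P020, gave -2.08 to -0.98, with 1 of 3 constructs lower than basal. E161, 19061 bp from P016, gave 2.05 to 4.03 over 4 constructs. E159, 16074 bp from P016, gave 4.76 ± 0.35 (SD, n = 3) in E159+P016- and between -1.48 and -1.05 in the other 3 orientations. The cCRE nearest to the Marco promoter, E299 at 1278 bp, gave 0.13 to 2.23, with E299-P033- higher than basal (limma adjusted p = 0.012).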
